A study of Homo sapiens with 6 samples.

Results

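The 10 genes described here encode secreted signals of the bone morphogenetic protein (BMP) and activin branch of the TGF-beta superfamily (BMP2, BMP4, BMP6, BMP7 and INHBA), the secreted BMP antagonist gremlin (GREM1) and the inhibitor of DNA binding proteins (ID1, ID2, ID3 and ID4). They were taken by symbol, and all 10 were found among the 26364 symbols of the expression table. The cells were A673/TR/shEF, a derivative of the Ewing sarcoma line A673 in which doxycycline releases a tetracycline repressor and switches on an shRNA directed at the mRNA of the EWSR1::FLI1 fusion. Total RNA was sequenced from 3 untreated samples (EF high, for a high level of the fusion) and from 3 samples that had received doxycycline at 1 µg/mL over 72 h (EF low). Both groups carry the repressor and the shRNA, and all libraries come from 1 cell line. Doxycycline was given to EF low samples alone, so the effect of the drug and that of the knockdown cannot be told apart. The submitters call the 3 samples of a group independent clones in one place and number them as experiments in another, and the p-values below measure the spread between these samples.

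BMP and activin ligands act as dimers that bring together type I and type II receptor kinases. BMP receptors phosphorylate SMAD1, SMAD5 and SMAD9, whereas activin receptors phosphorylate SMAD2 and SMAD3, and both branches share SMAD4. ID1, ID2 and ID3 are classical immediate targets of the BMP branch. ID proteins have a helix-loop-helix domain without a DNA-binding region, and they pair with E proteins (TCF3, TCF4 and TCF12) and keep them from DNA. In sarcoma and stromal cells these signals are studied for their part in mesenchymal and bone differentiation.

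Between 6980361 and 16658933 reads per library lay on genes, and the deepest library was EF low replicate 3. Expression was read as FPKM, which is per kilobase of gene, so that levels can be compared between genes. FLI1, the 3′ part of the targeted fusion transcript, had 11.3, 12.7 and 14.2 FPKM in the untreated replicates 1, 2 and 3, against 2.91, 4.29 and 3.68 FPKM in the treated replicates 1, 2 and 3. It fell by 1.57 on the log2(FPKM + 1) scale (SE 0.18, adjusted p = 0.000676, limma). All 7 Ewing sarcoma markers were also lower upon knockdown, 6 of them at an adjusted p under 0.01 (limma). CD99, the surface antigen used in diagnosis, was at 118.05 to 143.7 FPKM in EF high and at 84.2 to 105.2 FPKM in EF low, without overlap, and did not pass the limit of 0.01 (log2 difference -0.53, adjusted p = 0.067, limma). The immune cell markers PTPRC, CD3E and CD14 were at or below 0.669 FPKM in every library. The 3 EF low libraries stood further apart from each other than the 3 EF high libraries. Chi-square divided by its degrees of freedom was computed over the genes above a minimum of reads in the pair. It was 20.2 to 31.5 for pairs of EF low libraries and 4.25 to 6.27 for pairs of EF high libraries. This measure grows with depth, but the pair of EF low replicates 1 and 2, without the deepest library, had 31.5.

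The promoters of 4 of the 10 genes are shown first, since INHBA and GREM1 had the largest differences between the groups and the fold changes of ID1 and ID2 had opposite signs. The windows are the 250 bases before the RefSeq start (build GRCh38.p14), written 5′ to 3′ on the strand of the gene. INHBA is at chr7:41703091-41703340 on the minus strand, GREM1 at chr15:32717754-32718003 on the plus strand (the first of 2 starts in the table), ID1 at chr20:31605039-31605288 on the plus strand and ID2 at chr2:8681806-8682055 on the plus strand. Capitals mark matches, on either strand, to 5 motifs that were searched: GGCGCC (a GC-rich element bound by SMAD1 and SMAD5), GTCTAGAC (the palindromic SMAD box), GGAAGGAA (a tandem ETS core as in EWSR1::FLI1 microsatellites), TATAAA (the core promoter element of that name) and the E-box CAGCTG.
INHBA: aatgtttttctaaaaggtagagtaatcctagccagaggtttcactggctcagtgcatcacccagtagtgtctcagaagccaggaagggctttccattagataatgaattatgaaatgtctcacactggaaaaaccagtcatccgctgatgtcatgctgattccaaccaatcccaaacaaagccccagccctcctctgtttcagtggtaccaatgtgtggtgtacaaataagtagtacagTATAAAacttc
GREM1: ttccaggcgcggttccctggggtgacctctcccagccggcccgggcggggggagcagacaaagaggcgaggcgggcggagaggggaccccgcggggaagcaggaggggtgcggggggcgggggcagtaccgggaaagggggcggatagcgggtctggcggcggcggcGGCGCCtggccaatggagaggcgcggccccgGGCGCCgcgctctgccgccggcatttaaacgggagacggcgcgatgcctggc
ID1: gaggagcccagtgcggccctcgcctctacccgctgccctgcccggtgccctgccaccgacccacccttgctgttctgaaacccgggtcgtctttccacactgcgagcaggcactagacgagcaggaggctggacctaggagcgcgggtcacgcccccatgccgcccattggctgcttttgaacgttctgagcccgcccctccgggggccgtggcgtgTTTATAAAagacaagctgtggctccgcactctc
ID2: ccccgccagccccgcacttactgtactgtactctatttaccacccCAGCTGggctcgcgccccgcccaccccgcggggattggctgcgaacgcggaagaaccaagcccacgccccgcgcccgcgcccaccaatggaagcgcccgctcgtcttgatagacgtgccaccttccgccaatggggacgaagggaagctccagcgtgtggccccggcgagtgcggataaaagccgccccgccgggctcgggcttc
The INHBA window had 42.8% G and C and held TATAAA, whose first base lies 11 bases before the start. The GREM1 window had 76.8% G and C and held GGCGCC in 2 places. In the ID1 window, 2 matches to TATAAA on opposite strands overlap, and the ID2 window held 1 CAGCTG. Among 35116 RefSeq windows of the same length, 16.4% held GGCGCC, 10.7% TATAAA, 13.99% CAGCTG, 3.06% GGAAGGAA and 0.182% GTCTAGAC. None of these 4 windows held GGAAGGAA or GTCTAGAC, which says nothing of sites elsewhere. Among the windows of the 8 genes in the table, GGAAGGAA was found once, in the second of 3 windows of BMP4 (chr14:53954489-53954738, minus strand), 65 bases before the start.

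Genes with a mean of at least 0.5 FPKM over the 6 libraries were tested with limma on log2(FPKM + 1), and fold changes are on this scale, which understates the change of low genes. Of the 10 genes, 9 passed this filter and BMP2 did not. At an adjusted p under 0.01, a limit that the study used, limma called none of the 9, beside 7.88% of the 15504 genes tested. For its list of strongly regulated genes the study used DESeq2 and also a log2 fold change limit of 2.5. With both limits, limma called 1.02% of all genes tested. The main fit did not pair the samples by replicate number. With the number as a block, limma called GREM1 higher (adjusted p = 0.00858), beside 916 genes higher and 786 lower of all tested. At an unadjusted p under 0.05 the main fit called 5 of the 9, beside 34.3% of all genes tested. A fit of limma-voom on reads recovered from the FPKM values also called 0 of the 9 at an adjusted p under 0.01, beside 11.2% of all genes, and 5 of the 9 at an unadjusted p under 0.05, beside 34.4% of all genes. At a wider limit of 0.05 on the adjusted p, limma called GREM1 higher and ID2 lower, or 2 of 9, beside 19.8% of all genes (9.87% higher and 9.91% lower). Groups did not overlap for 3 of the 9: BMP4 and INHBA were higher in every EF low library, beside 17.5% of all genes tested, and ID2 was lower in every EF low library, beside 23.6%. The median of the 9 log2 fold changes was 0.43, and that of all genes tested was -0.05.

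**Figure D1:**
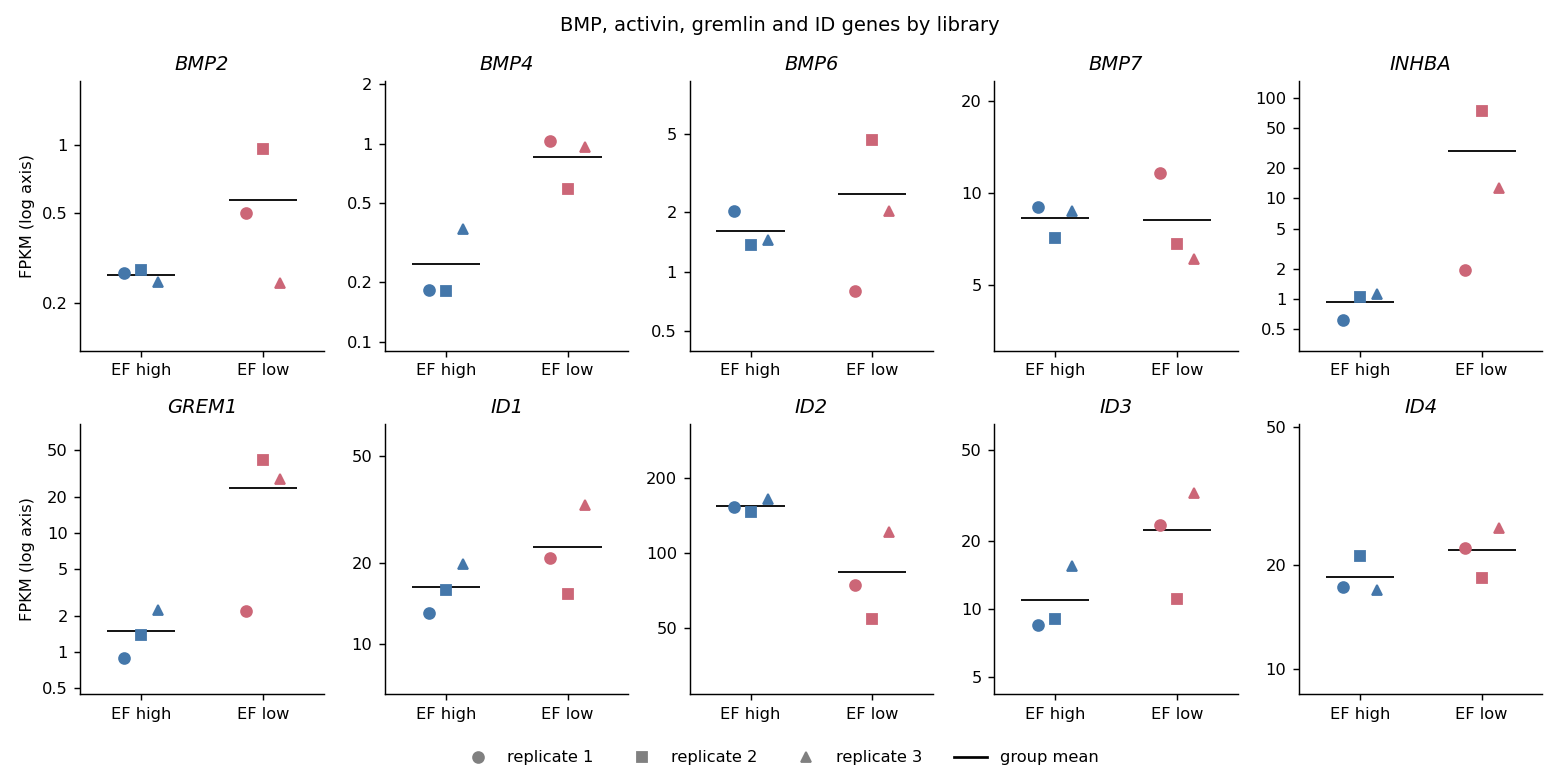
FPKM of the 10 genes in each library (log axes, a separate scale per gene), with EF high in blue, EF low in red, a symbol per replicate number and a line at the group mean. INHBA and GREM1 were far above EF high in EF low replicates 2 and 3 but close to EF high in replicate 1, and ID2 was below all EF high libraries in each EF low library.

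INHBA (ENSG00000122641, chromosome 7, 41706766 to 41745432, minus strand, GRCh37) encodes the beta A subunit, which forms activin A as a homodimer. In EF high replicates 1, 2 and 3 its level was 0.613, 1.04 and 1.13 FPKM. In EF low replicates 1, 2 and 3 it was 1.96, 73.3 and 12.7 FPKM. Each EF low library was above each EF high library, but the EF low libraries spanned a 37.3-fold range. The read numbers behind these values were 14, 18 and 19 in EF high and 38, 1307 and 430 in EF low, so the range within EF low lay beyond counting error. The means were 0.926 ± 0.275 and 29.3 ± 38.4 FPKM (SD, n = 3 in each group), a ratio of 31.6. On the log2 scale the difference was 2.92 (SE 0.91, 95% interval 0.84 to 4.99), and its adjusted p of 0.0542 (limma) fell short of the limit. The fit that left out EF low replicate 1 gave 4.06 (adjusted p = 0.00281, limma). Over all genes tested, that fit called 1452 higher and 726 lower, against 700 and 522 in the main fit. The fit that left out EF low replicate 2, the library with 73.3 FPKM, gave 1.74 (adjusted p = 0.0554, limma), and over all alternatives the adjusted p lay between 0.00281 and 0.138. INHBA-AS1, an antisense transcript that overlaps the gene, lay between 0.20 and 0.566 FPKM in the 6 libraries, and EF low replicates 1 and 2 had nearly the same value of it, 0.547 and 0.566 FPKM, despite their difference in INHBA.

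GREM1 (ENSG00000166923, chromosome 15, 33010205 to 33037307, plus strand) binds BMP2, BMP4 and BMP7 outside the cell and keeps them from their receptors. EF high replicates 1, 2 and 3 had 0.898, 1.39 and 2.25 FPKM, and EF low replicates 1, 2 and 3 had 2.23, 40.8 and 28.6 FPKM. EF low replicate 1 lay just within the EF high range, and the other EF low libraries lay far above it. This overlap depends on the scaling, since the median-ratio factors were 0.87 for EF low replicate 1 and 1.08 for EF high replicate 3. EF low replicate 1 was also the lowest EF low library for 8836 of the 15504 genes tested. The log2 fold change was 2.69 (SE 0.80, 95% interval 0.87 to 4.51, adjusted p = 0.0456, limma). Leaving out EF low replicate 1 raised the log2 fold change of GREM1 to 3.84 (adjusted p = 9.95e-05, limma), in a fit that called 1452 genes higher and 726 lower of all tested. The adjusted p of GREM1 lay between 9.95e-05 and 0.142 over all alternatives. INHBA and GREM1 thus had the same order within EF low, with replicate 2 highest and replicate 1 lowest, an order held by 20.5% of all genes tested. FLI1 had the same order within EF low, with 2.91, 4.29 and 3.68 FPKM in replicates 1, 2 and 3, and its part in the spread of INHBA and GREM1 was not tested.

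Among the 4 BMP ligands of the 10 genes, BMP7 (ENSG00000101144, chromosome 20, 55743809 to 55841697, minus strand), known for kidney and bone development, was the most abundant in both groups. Its levels were 8.98, 7.13 and 8.74 FPKM in EF high and 11.6, 6.78 and 6.10 FPKM in EF low, in the order of replicates 1, 2 and 3. The groups overlapped and their means were close, 8.28 ± 1.01 and 8.15 ± 2.99 FPKM (SD, n = 3). The difference on the log2 scale was -0.06, with a 95% interval from -0.60 to 0.48 (adjusted p = 0.888, limma), and its sign changed with median-ratio scaling, to 0.020. BMP6 (ENSG00000153162, chromosome 6, 7726332 to 7881961, plus strand), a regulator of iron balance and of cartilage, was at 2.03, 1.37 and 1.46 FPKM in EF high and at 0.797, 4.63 and 2.03 FPKM in EF low replicates 1, 2 and 3. Its EF low libraries lay both below and above the EF high range, in the order of INHBA and GREM1. The log2 fold change of BMP6 was 0.27 (95% interval -0.55 to 1.08, adjusted p = 0.648, limma) and -0.16 without EF low replicate 2.

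BMP4 (ENSG00000125378, chromosome 14, 54416454 to 54425479, minus strand), a mesoderm inducer, was scarce but did not overlap between the groups. The untreated replicates 1, 2 and 3 had 0.184, 0.182 and 0.374 FPKM, which were 4, 3 and 6 reads. The treated replicates 1, 2 and 3 had 1.03, 0.588 and 0.96 FPKM, which were 19, 10 and 31 reads. The floor of detection, set at 3 reads and covering counting error only, corresponds to 0.0929 to 0.187 FPKM in these libraries, so EF high values of BMP4 were near the floor. The ratio of the means was 3.49, and the log2 fold change was 0.57 (SE 0.18, 95% interval 0.17 to 0.97, adjusted p = 0.0512, limma). It was 1.77 with limma-voom on recovered reads (adjusted p = 0.026) and 1.48 with a pseudocount of 0.1 (adjusted p = 0.0583, limma), and over all alternatives the adjusted p of BMP4 lay between 0.026 and 0.174. BMP4 had its highest EF low value in replicate 1, the library where INHBA and GREM1 were lowest. That library had the fewest reads on genes, 6980361, yet the most genes above 0, 23458. BMP15 and GDF9, also scarce, had their highest values there as well, 1.25 and 1.01 FPKM, whereas BMP2 was highest in EF low replicate 2. Whether low-level background adds to the BMP4 value of EF low replicate 1 was not tested. BMP2 (ENSG00000125845, chromosome 20, 6748333 to 6760893, plus strand), an inducer of bone formation, was at 0.272, 0.279 and 0.246 FPKM in EF high and at 0.50, 0.968 and 0.244 FPKM in EF low replicates 1, 2 and 3. Its read numbers were 6 to 9 in EF high and 12 to 25 in EF low, and it was not tested. When the filter on low values was left out, its log2 fold change was 0.29 with an adjusted p of 0.373 (limma).

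**Figure D2:**
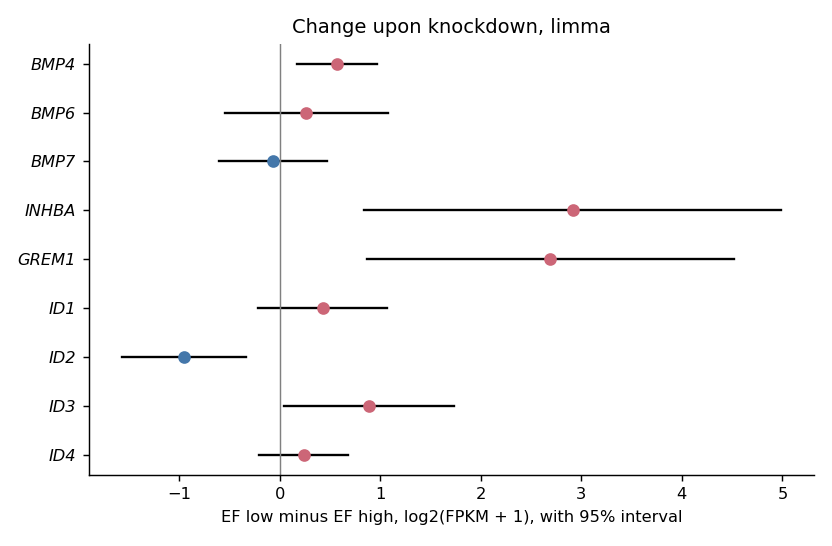
Difference between EF low and EF high on the log2(FPKM + 1) scale for the 9 tested genes, with the 95% interval of limma. The intervals of BMP4, INHBA, GREM1 and ID3 lay above 0 and that of ID2 below 0, before adjustment over all genes, and those of INHBA and GREM1 were the widest.

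ID2 (ENSG00000115738, chromosome 2, 8818975 to 8824591, plus strand), which besides its role in differentiation is known to bind the retinoblastoma protein, had the highest mean FPKM of the 10 genes in both groups, although INHBA exceeded it in EF low replicate 2. Its FPKM was 153.1, 146.4 and 163.9 in the untreated replicates 1, 2 and 3, and 74.7, 54.5 and 121.6 in the treated ones. The EF high libraries lay within a 1.12-fold range, and each EF low library was below them. The means were 154.5 ± 8.83 and 83.6 ± 34.4 FPKM (SD, n = 3), and the log2 fold change was -0.95 (SE 0.27, 95% interval -1.57 to -0.34, adjusted p = 0.0389, limma). The fit that left out EF low replicate 3 gave -1.26 (adjusted p = 0.00634, limma), the lowest adjusted p of ID2 among the alternatives, of which the highest was 0.14. ID2-AS1, which overlaps ID2 on the opposite strand, was at 0.657 to 1.03 FPKM in EF high and 0.465 to 0.643 FPKM in EF low, far below ID2.

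ID1 and ID3 had fold changes of the opposite sign to ID2, short of the limit. ID1 (ENSG00000125968, chromosome 20, 30193086 to 30194318, plus strand), linked to stemness and to blood vessel growth, was at 13.1, 15.9 and 19.9 FPKM in EF high and at 21.0, 15.3 and 32.9 FPKM in EF low replicates 1, 2 and 3. Its groups overlapped, and the difference was 0.43 on the log2 scale (95% interval -0.21 to 1.07, adjusted p = 0.322, limma). For ID1 it was 0.15 without EF low replicate 3 and 0.68 without EF low replicate 2. ID3 (ENSG00000117318, chromosome 1, 23884417 to 23885992, minus strand), a factor of lymphocyte development, was at 8.46, 9.01 and 15.4 FPKM in EF high and at 23.5, 11.02 and 32.5 FPKM in EF low replicates 1, 2 and 3. EF low replicates 1 and 3 were above the EF high range of ID3 and replicate 2 was within it. The log2 fold change of ID3 was 0.89 (SE 0.37, 95% interval 0.04 to 1.74, adjusted p = 0.13, limma), and it was 1.31 (adjusted p = 0.0199, limma) when EF low replicate 2 was left out. It was 0.57 (adjusted p = 0.309, limma) when EF low replicate 3 was left out, and over all alternatives the adjusted p of ID3 lay between 0.0199 and 0.315. ID4 (ENSG00000172201, chromosome 6, 19837601 to 19842428, plus strand), known from neural and mammary precursors, was at 17.3, 21.2 and 17.0 FPKM in EF high and at 22.4, 18.4 and 25.5 FPKM in EF low replicates 1, 2 and 3. Its groups overlapped, and the difference was 0.24 on the log2 scale (95% interval -0.20 to 0.68, adjusted p = 0.428, limma). For ID4 it was 0.13 without EF low replicate 3 and 0.36 without EF low replicate 2.

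The make-up of the ID family separated the groups, with ID2 taking a smaller share in each EF low library. ID2 made up 79.8%, 76.0% and 75.8% of the summed FPKM of the 4 genes in EF high replicates 1, 2 and 3, and 52.8%, 54.9% and 57.2% in EF low replicates 1, 2 and 3. ID1 made up 6.81% to 9.21% of the sum in EF high libraries and 14.8% to 15.5% in EF low libraries, and ID3 made up 4.41% to 7.13% and 11.1% to 16.6%. These shares did not overlap between the groups. The FPKM of ID2 was 11.7, 9.22 and 8.23 times that of ID1 in EF high replicates 1, 2 and 3, and 3.56, 3.55 and 3.70 times in EF low replicates 1, 2 and 3. The ratio of ID2 to ID1 was therefore nearly the same in the 3 EF low libraries, although the sum of the 4 genes went from 99.3 FPKM in replicate 2 to 212.5 FPKM in replicate 3. The ratio of ID2 to ID3 varied more, at 18.1, 16.2 and 10.6 in EF high replicates 1, 2 and 3 and at 3.18, 4.95 and 3.74 in EF low replicates 1, 2 and 3, also without overlap between the groups. Such ratios within a library do not depend on the scaling between libraries. They show unequal change of the genes and not which of them changed, and they were computed after the values had been seen, with no test. How often ratios of other genes separate the groups was not computed.

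**Figure D3:**
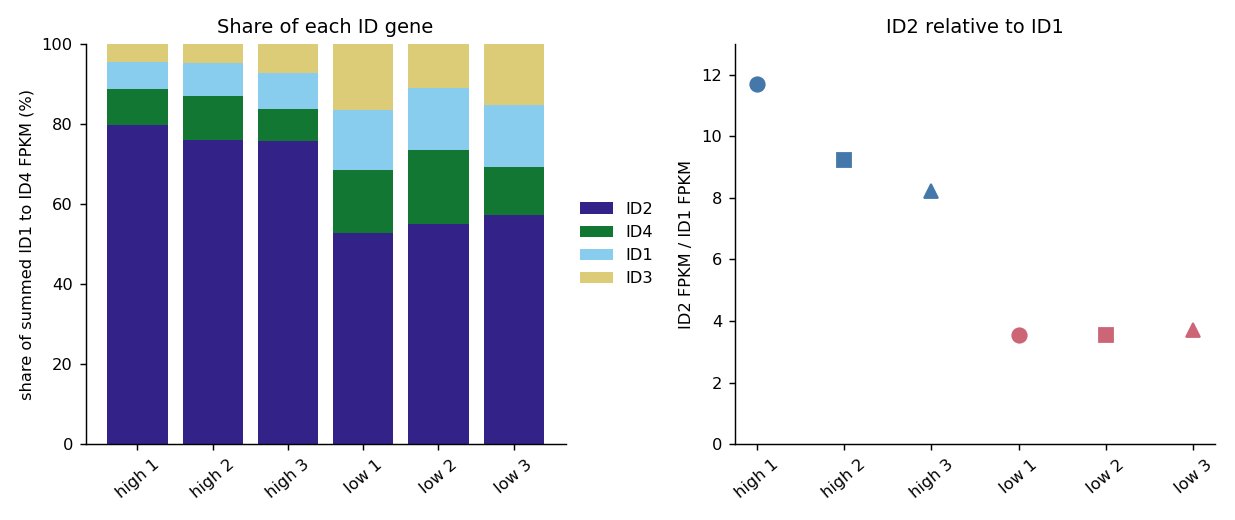
Left, share of each ID gene in the summed FPKM of ID1, ID2, ID3 and ID4 in each library; right, FPKM of ID2 divided by FPKM of ID1. The share of ID2 was at least 75.8% in the EF high libraries and at most 57.2% in the EF low libraries, and the ratio to ID1 lay between 3.55 and 3.70 in EF low.

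Within EF low, the 4 ID genes kept 1 order, with replicate 3 highest and replicate 2 lowest, an order held by 12.2% of all genes tested. From replicate 2 to replicate 3 the values differed 2.14-fold for ID1, 2.23-fold for ID2, 2.95-fold for ID3 and 1.39-fold for ID4. With median-ratio scaling these became 1.97, 2.05, 2.70 and 1.27, and replicate 2 stayed lowest for each, while for ID4 replicate 1 took the place of replicate 3 as the highest. Other genes induced by BMP signalling, SMAD6, SMAD9 and ATOH8, also had their lowest EF low value in replicate 2. Relative to the EF high mean, EF low replicate 2 was at 0.399 for SMAD6, 0.264 for SMAD9 and 0.939 for ATOH8, while replicates 1 and 3 were at 1.02 and 0.922, 0.712 and 0.842, and 2.65 and 2.95. Replicate 2 was lowest within EF low for 4 of the 9 tested genes on the list of other BMP response genes. For the list of SMADs and their ubiquitin ligases, which holds SMAD6 and SMAD9, it was lowest for 2 of 10. Over all 54 tested pathway genes outside the 10, both lists included, it was lowest for 18, beside 25.5% of all genes tested. Replicate 2 was also the library with the highest INHBA, GREM1 and FST. GREM1 was at 1.47, 27.0 and 18.9 times the EF high mean in EF low replicates 1, 2 and 3. FST was at 43.5 and 23.5 times that mean in EF low replicates 2 and 3. Replicate 3 thus had raised GREM1 and FST together with the highest FPKM of the 4 ID genes within EF low. A link between the levels of GREM1 or FST and those of the ID genes was not tested. MSX1, MSX2, HEY1 and SMAD7, also known BMP response genes, did not have their lowest EF low value in replicate 2, and the genes named here were compared within EF low after their values had been seen.

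**Figure D4:**
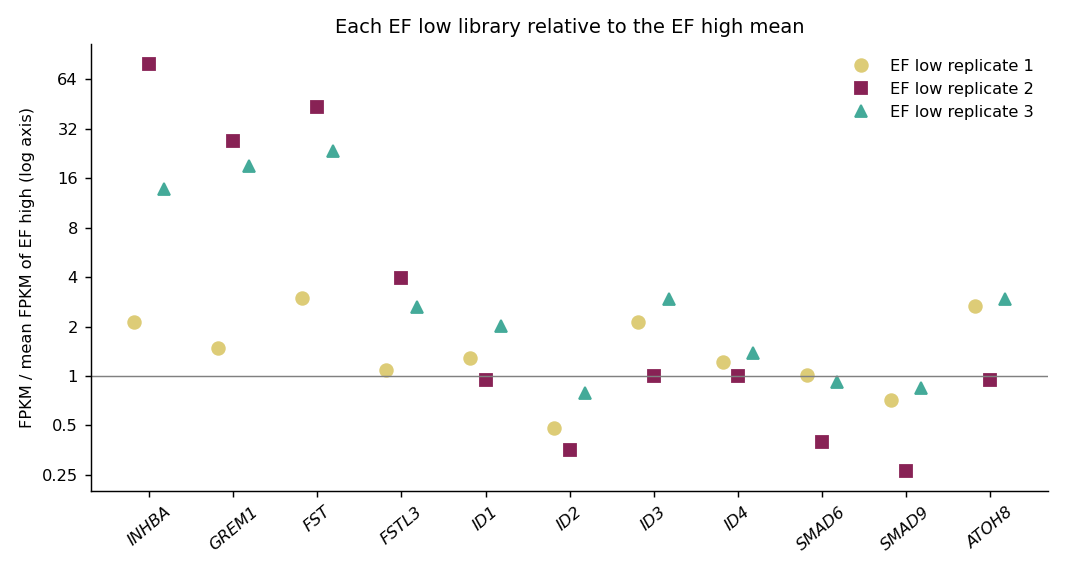
FPKM of each EF low library divided by the EF high mean (log axis), for INHBA, GREM1 and the activin antagonists FST and FSTL3 on the left and for the ID genes, SMAD6, SMAD9 and ATOH8 on the right. SMAD6, SMAD9 and ATOH8 were chosen because replicate 2 was lowest, as it was for the 4 ID genes, while for INHBA it was 79.1 times the EF high mean.

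Ordered by mean FPKM, the EF high libraries had ID2 first, followed by ID4, ID1, ID3, BMP7, BMP6, GREM1, INHBA, BMP2 and BMP4. Neighbours in this order had overlapping ranges except ID2 and ID4, BMP7 and BMP6, and INHBA and BMP2. In EF low, INHBA and GREM1 moved to positions 2 and 3 by their means, ahead of ID1, ID3 and ID4, but the range of each overlapped that of its neighbours. BMP7, BMP6, BMP4 and BMP2 followed, and in EF low only the ranges of ID4 and BMP7 and of BMP7 and BMP6 were apart from each other.

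The rest of the pathway was described by a list of 81 further genes, of which 54 passed the filter on low values. At an adjusted p under 0.01, 10 of the 54 were higher in EF low and 4 were lower, beside 4.51% and 3.37% of all genes tested. The list was chosen with earlier results of these data known, so these counts are no measure of enrichment. With 1 library left out, the counts went from 4 to 18 higher and from 2 to 7 lower. The median of the 54 fold changes was 0.25 (log2). The ligands that passed were BMP5, GDF6 and GDF10, of 7 tested. BMP5, a cartilage and bone signal, rose 4.99-fold, from 3.86 ± 0.202 to 19.3 ± 6.72 FPKM (SD, n = 3; adjusted p = 0.00108, limma), so that it was the BMP ligand with the highest mean FPKM in EF low. GDF6, which patterns joints, fell from 36.9 ± 3.34 to 9.13 ± 5.03 FPKM, and GDF10 from 2.31 ± 0.209 to 0.285 ± 0.121 FPKM (SD, n = 3). INHBE, the activin beta E subunit, was at 0.352, 1.80 and 0.583 FPKM in EF high and at 1.89, 12.8 and 2.98 FPKM in EF low replicates 1, 2 and 3 (adjusted p = 0.0676, limma), and INHA, INHBB and INHBC did not pass the filter.

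Of 11 secreted antagonists and modulators tested, FSTL1, CRIM1 and BMP1 rose and CER1 fell. FSTL1, a follistatin-like glycoprotein of mesenchymal cells, rose from 44.6 ± 11.8 to 220.3 ± 24.4 FPKM (SD, n = 3; log2 fold change 2.30, adjusted p = 0.000287, limma). CRIM1, a membrane protein that binds BMPs, went from 20.3 ± 3.92 to 64.6 ± 17.1 FPKM (SD, n = 3), and BMP1, which despite its name is a protease of procollagen and of chordin, had a log2 difference of 1.93. CER1, a secreted inhibitor of BMP and nodal, fell by 1.79 on the log2 scale, from 8.15 ± 2.12 to 1.62 ± 0.363 FPKM (SD, n = 3). FST, follistatin, which binds activin A, shared the order of INHBA and GREM1: it was at 0.363, 0.239 and 0.308 FPKM in EF high and at 0.911, 13.2 and 7.13 FPKM in EF low replicates 1, 2 and 3. For FST the log2 difference was 2.21, which did not pass the limit of 0.01 (adjusted p = 0.0321, limma). NOG, noggin, and CHRD, chordin, were too low to be tested, at no more than 0.848 and 0.261 FPKM in any library.

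Of 13 receptors and coreceptors tested, BMPR2 alone passed, with a rise from 7.24 ± 1.12 to 14.9 ± 2.26 FPKM (SD, n = 3; log2 fold change 0.95, adjusted p = 0.00935, limma). BMPR2 is a type II receptor of the BMP branch. BMPR1A, a type I receptor of that branch, had the highest mean FPKM of the receptors. It was at 51.9 ± 2.65 FPKM in EF high and 45.1 ± 9.14 FPKM in EF low (SD, n = 3), a log2 difference of -0.22 (95% interval -0.66 to 0.23). Of 10 SMADs and SMAD ubiquitin ligases, SMAD3 alone passed, with 5.18 ± 1.03 FPKM in EF high and 18.9 ± 7.38 FPKM in EF low (SD, n = 3; log2 fold change 1.63, adjusted p = 0.00542, limma). SMAD3 carries the activin and TGF-beta signal. For SMAD5, the most abundant SMAD, the log2 difference was 0.71 (adjusted p = 0.0279, limma), SMAD1 one of 0.04 and SMAD4 one of -0.01.

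Of 9 other BMP response genes tested, HEY1, MSX2, DLX2 and RUNX2 rose, and none of the 9 passed the limit in the lower direction. HEY1, a transcriptional repressor that Notch also induces, rose from 0.263 ± 0.054 to 4.23 ± 1.02 FPKM (SD, n = 3; log2 fold change 2.03, adjusted p = 0.000212, limma). The log2 fold changes of MSX2 and DLX2, homeobox factors of bone and neural crest, were 1.28 and 1.20, and that of RUNX2, the osteoblast factor, was 1.13. DLX5 and ALPL, also linked to bone formation, had log2 fold changes of -1.37 and -0.94 with adjusted p-values of 0.0307 and 0.0305 (limma). Among the E proteins that ID proteins bind, TCF3 fell from 38.4 ± 5.59 to 18.4 ± 3.04 FPKM (SD, n = 3; log2 fold change -1.02, adjusted p = 0.00903, limma). TCF12, the most abundant, was at 218.8 ± 10.5 and 133.5 ± 32.0 FPKM (SD, n = 3; adjusted p = 0.0371, limma), and TCF4 had a log2 fold change of 0.17. The mean FPKM of TCF12 thus exceeded that of ID2 in both groups.

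**Figure D5:**
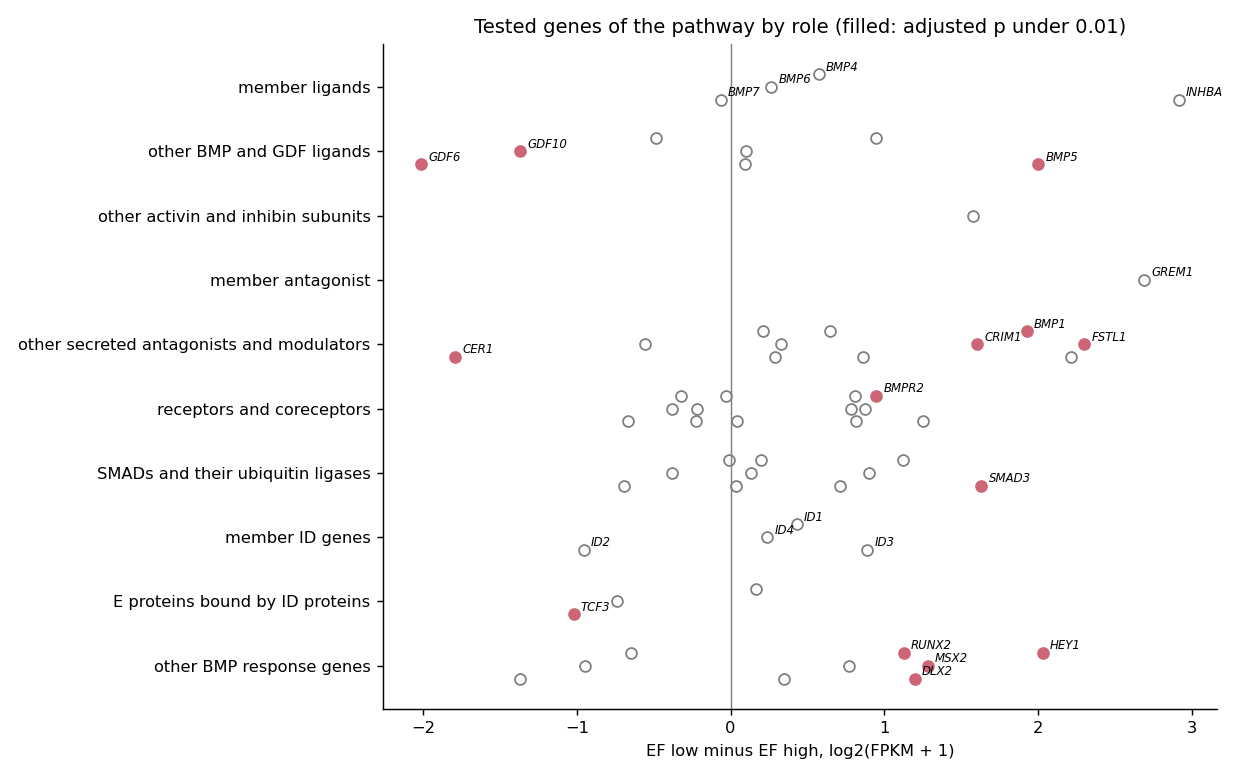
Log2 fold changes on the log2(FPKM + 1) scale of the tested genes of the pathway, a row per role, with filled points where the adjusted p was under 0.01 (limma). The 14 filled points belong to genes outside the 10, and none of the 9 tested genes of the 10 is filled.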

How the data were processed

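RNAseq was performed on rRNA-depleted total RNA of 6 samples, grouped by their titles. Per the labels, the authors used STAR 2.5.0b, Cufflinks 2.2.1 and GRCh37, and the authors deposited FPKM values for each symbol in each library. They also deposited a table of their comparison with DESeq2 1.6.3, where the authors report for each gene a mean signal, a log2 fold change, a Wald score and p-values. Of this table, only the mean signal was used here. Multiplied by the ratio of mean signal to mean FPKM, 100% of the values above 0 were whole multiples of 1 read (tolerance 0.1 reads), which gave read numbers.

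The filter was a mean over the 6 libraries of 0.5 FPKM or more. The fit on log2(FPKM + 1) used limma 3.58.1 (R 4.3.3; eBayes with trend), p-values were adjusted by Benjamini and Hochberg, and the limit was 0.01. The fit was first tested on simulated data with the same spread in both groups, which does not cover the wider spread within EF low. Gene coordinates are those of GENCODE 44 lifted to GRCh37. Of the 10 genes, 8 had promoters in the RefSeq table. Named are the 10 genes, FLI1, pathway genes with an adjusted p under 0.01 (up to 6 a list), the most abundant receptors, SMADs and E proteins, and overlapping genes. Others were named after their values were seen. Genes most similar to a called gene were to be named, but none of the 10 was called. The genes and lists were chosen with earlier results of these data known. The counting was not stated to use strand.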

Additional observations from a re-analysis of the deposited data

How the results depend on the processing

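Alternatives were quantile normalization, median-ratio scaling, limma-voom on recovered reads, a pseudocount of 0.1, no filter, a filter at a mean of 1 FPKM, a replicate block, eBayes without trend, a limit of 0.05 on the adjusted p, and leaving out each library in turn. FLI1 stayed lower and past the limit of 0.01 in all 14 alternative fits. Of the 10 genes, BMP7 changed sign with median-ratio scaling (0.020), without EF low replicate 2 (0.031) and without EF low replicate 3 (0.10), and BMP6 without EF low replicate 2 (-0.16). Leaving out 1 library gave log2 fold changes of 1.74 to 4.06 for INHBA, 1.99 to 3.84 for GREM1, -1.26 to -0.69 for ID2, -0.16 to 0.67 for BMP6, -0.32 to 0.10 for BMP7, 0.50 to 0.68 for BMP4, 0.15 to 0.68 for ID1, 0.57 to 1.31 for ID3 and 0.13 to 0.36 for ID4. The cause of these changes was not tested. With the replicate block GREM1 passed (log2 fold change 2.69, adjusted p = 0.00858, limma), so 1 of the 10 genes was higher. In that fit INHBA, ID2 and ID3 had adjusted p-values of 0.014, 0.0155 and 0.0284 (limma). In the data, same-numbered libraries deviated together with r = 0.27, 0.09 and 0.12 across genes. Libraries of unequal number had r from -0.29 to 0.19, and not every library correlated best with its own number. The main fit therefore did not pair the samples by number, and whether the numbers pair them was not settled. Numbers of called genes among the 10 went from 0 to 2 higher and 0 to 1 lower when 1 library was left out (2 without EF low replicate 1, 1 without EF low replicate 3). For the other pathway genes they went from 4 (without EF high replicate 2) to 18 higher and from 2 to 7 lower, with 18 and 7 reached without EF low replicate 1, and for all genes tested from 287 to 1452 higher and 156 to 726 lower. Leaving out any EF high library or EF low replicate 3 gave 4 or 5 higher and 2 lower pathway genes. At a limit of 0.05, 1 and 1 of the 10 genes, 18 and 8 other pathway genes, and 1530 and 1537 of all genes were higher and lower. For all genes, 700 were higher and 522 lower at the limit of 0.01. Without a filter, 456 were higher and 297 lower. The number of lower genes was 784 with limma-voom, 813 with median-ratio scaling, 1000 with quantile normalization and 786 with the replicate block. Depth limits BMP2 and BMP4, with fewer than 10 reads in each EF high library.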
